A study of Homo sapiens with 8 samples.

Results

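The primitive streak is the strip of the gastrulating embryo where epiblast cells leave the epithelium and form mesoderm and endoderm. NODAL, WNT and FGF signals start it, and a small group of transcription factors then marks its cells and directs them toward one layer or the other. In human embryonic stem cell (hESC) cultures the same factors serve as signs that cells have begun to leave the undifferentiated state. The 10 followed here were TBXT (brachyury), EOMES, MIXL1, GSC (goosecoid), LHX1, FOXA2, MESP1, TBX6, SNAI1 and FOXC1. Members were taken as every probe of the array whose annotated symbol, current or older, was one of these names. That gave 11 probes of 24526 for 9 of the 10 genes, and no probe carried the name of FOXC1, a forkhead factor of paraxial and later mesoderm, which is therefore not analysed here.

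The data were 8 Illumina human BeadChip arrays of hESCs grown for 5 days on Matrigel in the serum-free medium N2B27. The labels name the line as H1 and the study's account of the array experiment names H9; both are established hESC lines. There were 4 conditions with 2 arrays each: no added factor (-bFGF), basic fibroblast growth factor at 24 ng/ml (+bFGF), interleukin-11 at 10 ng/ml (+IL-11), and both factors together at those doses (+IL-11+bFGF). bFGF is the factor in general use to keep hESCs undifferentiated, and IL-11 is a cytokine that signals through gp130 and STAT3. The comparisons ask whether either factor, alone or with the other, changed the streak factors. Whether both arrays of a condition were grown as separate cultures is not stated, so the tests speak only to the scatter among the 8 arrays, which may be technical.

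Signals are given on the log2 scale after background correction and quantile normalization, and a probe counted as detected on an array where its detection p, the chance of such a signal from a negative control bead, was under 0.01. Between 10983 and 11761 probes were detected per array, 44.8% to 48% of those present. A gene was tested where a probe was detected on both arrays of at least 1 condition, which held for 9269 of 16922 named genes. The bFGF labels were borne out by SPRY4, a feedback inhibitor that FGF signalling switches on, which was 7.10-fold higher in +bFGF than in -bFGF (adjusted p = 3.6e-06, limma). No such check is given for the IL-11 labels. POU5F1, the core factor of the undifferentiated state, was well above background in every condition and higher in +bFGF than in -bFGF by 1.44 ± 0.11 (log2, SE, adjusted p = 9.67e-05, limma).

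Of the 9 streak factors with a probe, 5 passed the filter, namely EOMES, FOXA2, MIXL1, LHX1 and MESP1. The other 4, TBXT, GSC, TBX6 and SNAI1, did not. EOMES and FOXA2 were detected on all 8 arrays, MIXL1 on 6, LHX1 on 4, MESP1 on 3, TBXT on 2, and GSC, TBX6 and SNAI1 on 0. The arrays measured bulk RNA, in which fewer cells of a type and less RNA per cell cannot be told apart.

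**Figure D1:**
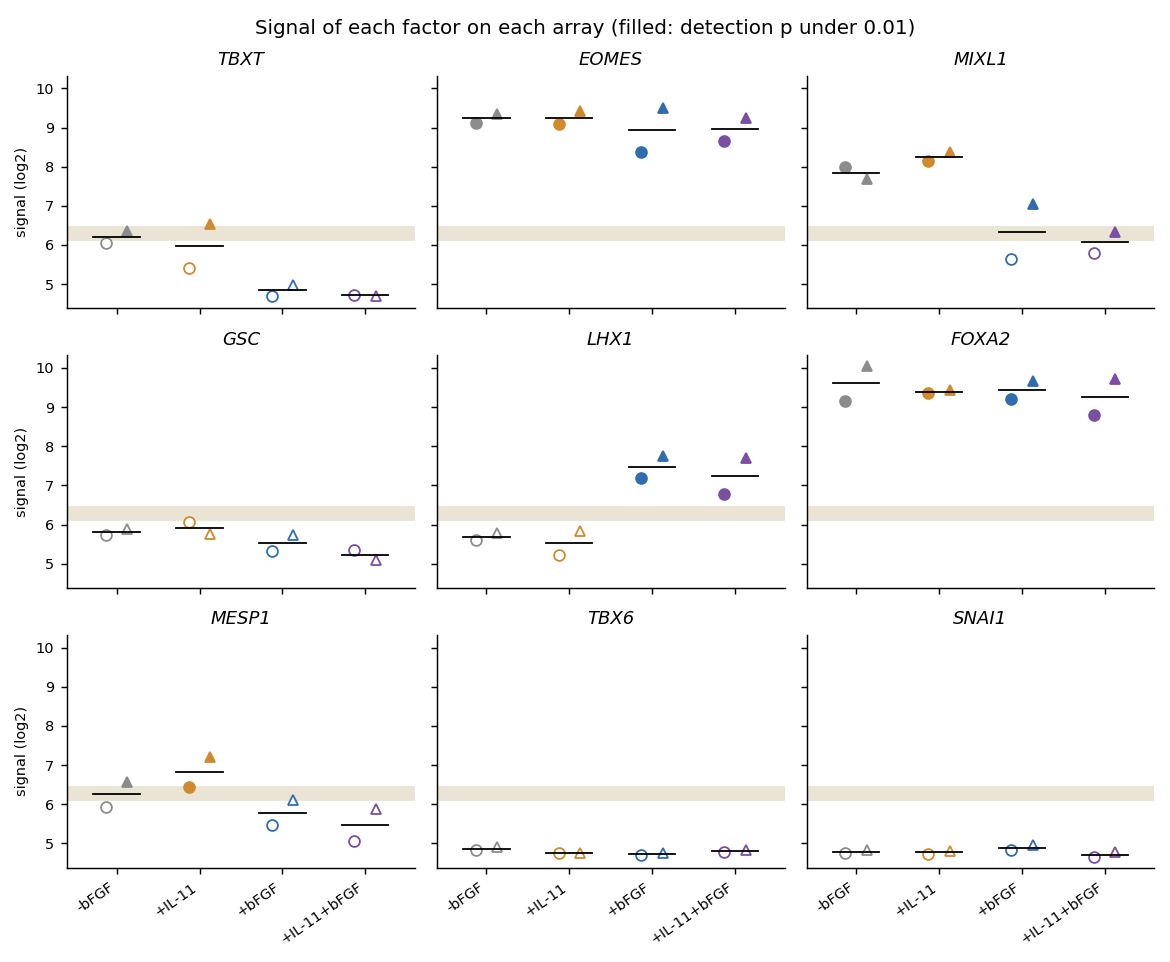
Signal (log2) of the 9 streak factors with a probe on each of the 8 arrays, by condition; circles are replicate 1, triangles replicate 2, black bars the mean of both, filled symbols arrays where the probe was detected, and the shaded band the range over arrays of the dimmest detected probe. EOMES and FOXA2 lie above the band on every array, LHX1 is above it only with bFGF, MIXL1 is highest without bFGF, and TBX6 and SNAI1 lie below it throughout.

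MIXL1 and TBXT are the members whose promoters are shown, because both genes are known from model systems as targets of the NODAL or WNT signals that start the streak and both gave lower signals with bFGF. The stretches are the 250 bases before an annotated start, taken from RefSeq on GRCh38.p14, and 6 of the 10 genes had an entry (TBXT, EOMES, MIXL1, GSC, TBX6 and FOXC1). Capitals mark matches to 5 motifs searched on both strands, CTTTGNT for TCF/LEF, CAGAC for SMAD, AATNNACA for FOXH1, GGTGTNA for T-box factors and CCGGAAG for ETS factors. MIXL1 lies on the plus strand of chromosome 1, and its stretch is chr1:226223414-226223663.
MIXL1: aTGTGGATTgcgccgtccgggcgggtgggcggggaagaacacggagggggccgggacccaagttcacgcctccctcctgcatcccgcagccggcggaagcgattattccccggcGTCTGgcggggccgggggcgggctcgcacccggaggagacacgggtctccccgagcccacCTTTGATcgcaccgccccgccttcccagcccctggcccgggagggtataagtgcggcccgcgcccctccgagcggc
TBXT lies on the minus strand of chromosome 6 and has 2 annotated starts, of which the second, chr6:166167852-166168101, held matches.
TBXT: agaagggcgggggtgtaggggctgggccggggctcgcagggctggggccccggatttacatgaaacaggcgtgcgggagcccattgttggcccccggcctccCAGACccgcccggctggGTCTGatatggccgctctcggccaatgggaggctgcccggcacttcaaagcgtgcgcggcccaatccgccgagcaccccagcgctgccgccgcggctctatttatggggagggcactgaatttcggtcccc

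In the MIXL1 stretch the capitals are, from the 5′ end, a FOXH1 match on the opposite strand, a SMAD match on the opposite strand and a TCF/LEF match 76 to 70 bases before the start. In the TBXT stretch they are 2 SMAD matches, 1 on each strand. Among all 35116 promoters of the same length, 13.2% held the TCF/LEF motif, 38% the SMAD motif, 9.88% the FOXH1 motif, 7.66% the T-box motif and 8.52% the ETS motif. GSC and TBX6 held 1 SMAD match each, EOMES held 1 ETS match, and FOXC1 and the first TBXT start held none of the 5. No motif overlapped another in these stretches. A match describes letters and is not a measured site.

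MIXL1, a paired-type homeobox factor of the streak and early mesendoderm, was lower wherever bFGF was present. Its signals were 8.00 and 7.69 in -bFGF and 8.15 and 8.37 in +IL-11, against 5.64 and 7.03 in +bFGF and 5.80 and 6.33 in +IL-11+bFGF. The 4 arrays with bFGF lay below the 4 without it, and in each bFGF condition the probe was detected only on replicate 2. The difference between +bFGF and -bFGF was -1.51 ± 0.38 (log2, SE, 2 arrays against 2, adjusted p = 0.0267, limma). With the undetected array set to its dimmest detected signal, MIXL1 was at least 2.28-fold lower. With IL-11 present on both sides, the difference was -2.19 ± 0.38 (adjusted p = 0.0061, limma), at least 3.69-fold on the same basis. Averaged over both backgrounds, the MIXL1 difference with bFGF was -1.85 ± 0.27 (adjusted p = 0.000929, limma), with 2 of the 4 bFGF arrays below the detection limit. The +bFGF comparison rested on the arrays used: it was -0.81 (adjusted p = 0.105, limma) without +bFGF replicate 1, while leaving out -bFGF replicate 1 gave an adjusted p of 0.103 and leaving out -bFGF replicate 2 gave 0.0778. The comparison with IL-11 on both sides missed the threshold without +IL-11 replicate 2 (adjusted p = 0.0524, limma), whereas the averaged difference passed it without any single array (adjusted p between 0.000102 and 0.00558).

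LHX1, a LIM-homeobox factor of the node, anterior mesendoderm and later intermediate mesoderm, ran the other way. Its signals were 7.20 and 7.76 in +bFGF and 6.79 and 7.69 in +IL-11+bFGF. They were 5.60 and 5.79 in -bFGF and 5.22 and 5.84 in +IL-11, where the probe was not well above background on any array. All 4 arrays with bFGF were detected and lay above all 4 without it. The fitted difference was 1.79 ± 0.32 between +bFGF and -bFGF (log2, SE, adjusted p = 0.00677, limma) and 1.72 ± 0.32 between +IL-11+bFGF and +IL-11 (adjusted p = 0.00939). Since the dim side has only an upper limit, the fold is a bound, the bright condition's mean over the higher of the dimmest detected signal and the probe's own on each dim array. On that basis LHX1 was at least 2.31-fold higher in +bFGF than in -bFGF and at least 2.03-fold higher in +IL-11+bFGF than in +IL-11. Averaged over both backgrounds, the difference was 1.75 ± 0.23 (adjusted p = 0.000541, limma), and it passed without any single array. The single comparisons lost the call without +bFGF replicate 2 (1.51, adjusted p = 0.0566) and, with IL-11, without +IL-11 replicate 1 (adjusted p = 0.073).

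MESP1, a basic helix-loop-helix factor of early mesoderm and the cardiovascular precursors, had its highest condition mean with IL-11 alone. They were 5.94 and 6.57 in -bFGF, 6.44 and 7.21 in +IL-11, 5.46 and 6.10 in +bFGF, and 5.05 and 5.88 in +IL-11+bFGF. It was detected on both +IL-11 arrays and -bFGF replicate 2 and on no array with bFGF, though the groups with and without bFGF overlapped. Between +IL-11+bFGF and +IL-11 the difference was -1.36 ± 0.37 (log2, SE, adjusted p = 0.0432, limma), at least 1.47-fold lower. Between +bFGF and -bFGF it was -0.47 ± 0.37 (adjusted p = 0.425, limma), with no fold because the -bFGF mean did not exceed the dimmest detected signal. The averaged bFGF difference was -0.92 ± 0.26 (adjusted p = 0.0278, limma). These calls were close to the threshold: the first was -0.97 (adjusted p = 0.271) without +IL-11 replicate 2, and leaving out +IL-11+bFGF replicate 1 gave -0.94 (0.26) and leaving out +IL-11 replicate 1 gave -1.75 (0.0553). The averaged difference missed the threshold in 4 of the 8 fits with 1 array left out, namely +bFGF replicate 1 (adjusted p = 0.0946, limma), -bFGF replicate 2 (0.0955), +IL-11 replicate 2 (0.105) and +IL-11+bFGF replicate 1 (0.0913). The difference between the 2 bFGF responses of MESP1 was itself -0.89 ± 0.52 (adjusted p = 0.998, limma).

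EOMES, the T-box factor that acts at the top of the endoderm and cardiac mesoderm programmes, was detected on every array and did not pass the test in any comparison. Its signals were 9.11 and 9.36 in -bFGF, 9.08 and 9.43 in +IL-11, 8.36 and 9.49 in +bFGF, and 8.66 and 9.24 in +IL-11+bFGF. The 2 +bFGF arrays thus held both the lowest and the highest value of the 8. The difference between +bFGF and -bFGF was -0.30 (95% interval -1.02 to 0.41, adjusted p = 0.56, limma). Without +bFGF replicate 2 the averaged bFGF difference for EOMES was -0.59 and passed the threshold (adjusted p = 0.0344), which it did not in the other 7 such fits.

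FOXA2, the forkhead factor of the node and definitive endoderm, was also present throughout. One of its 3 probes was detected on all 8 arrays, with signals of 9.16 and 10.05 in -bFGF, 9.35 and 9.44 in +IL-11, 9.21 and 9.67 in +bFGF, and 8.80 and 9.73 in +IL-11+bFGF. The other 2 probes were detected on none, with raw intensities of 56.0 to 73.1, so the gene rests on a single probe. The bFGF difference was -0.17 (95% interval -0.90 to 0.56, adjusted p = 0.766, limma) without IL-11 and -0.13 (-0.86 to 0.60, adjusted p = 0.851) with it.

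TBXT, the T-box factor that defines nascent mesoderm and notochord, gave a signal near the limit of detection without bFGF and none above background with it. Its log2 signals were 6.05 and 6.36 in -bFGF, 5.41 and 6.54 in +IL-11, 4.71 and 4.97 in +bFGF, and 4.73 and 4.70 in +IL-11+bFGF. Only -bFGF replicate 2 and +IL-11 replicate 2 passed the detection limit, and the 4 arrays with bFGF lay below the 4 without it. No fold is given, because the bright conditions' means did not exceed the dimmest detected signal. A fit without the detection filter, added after the values were seen and covering all 16922 named genes, gave differences of -1.37 ± 0.29 for +bFGF against -bFGF (log2, SE, adjusted p = 0.0159, limma) and -1.26 ± 0.29 with IL-11 on both sides (adjusted p = 0.0267). In that fit 7.35% and 5.74% of genes were called. The 2 TBXT calls were kept in 11 and 9 of 17 alternative fits. Apart from fits with 1 array left out, both were lost in the authors' normalized table, without an intensity trend and by the methods' t-test. The call with IL-11 on both sides was also lost with an offset of 50 and with only the arrays compared. The averaged difference was -1.31 ± 0.20 (adjusted p = 0.00127, limma), with 15% of genes called, and it passed in all 16 alternative fits, where it ranged from -1.65 to -0.75. The first comparison of TBXT lost the call without +bFGF replicate 1 (adjusted p = 0.118, limma), -bFGF replicate 2 (0.109) or +bFGF replicate 2 (0.0599). The second lost it without +IL-11 replicate 2 (-0.70, adjusted p = 0.11), +IL-11+bFGF replicate 1 (0.139) or +IL-11+bFGF replicate 2 (0.105).

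GSC, a homeobox factor of the organizer and anterior streak, was not detected on any array, and its lowest detection p was 0.0162. Its signals were 5.74 and 5.89 in -bFGF, 6.06 and 5.75 in +IL-11, 5.31 and 5.73 in +bFGF, and 5.34 and 5.09 in +IL-11+bFGF. The 4 arrays with bFGF again lay below the 4 without, by a narrow gap (5.73 against 5.74). Without the detection filter the single comparisons did not pass the threshold. They were -0.30 for +bFGF against -bFGF (log2, adjusted p = 0.444, limma) and -0.69 with IL-11 on both sides (adjusted p = 0.0689). In that fit the averaged difference was -0.49 ± 0.14 (log2, SE, adjusted p = 0.0343, limma), where 15% of genes were called. It kept an adjusted p under 0.05 in 7 of 16 alternative fits. It lost the call without -bFGF replicate 1 (adjusted p = 0.0527, limma), +bFGF replicate 1 (0.137), -bFGF replicate 2 (0.096), +IL-11 replicate 1 (0.115), +IL-11+bFGF replicate 1 (0.0523) or +IL-11+bFGF replicate 2 (0.119). TBX6, a T-box factor of paraxial mesoderm, stayed between 4.71 and 4.89 on all arrays, and SNAI1, the repressor of E-cadherin active as cells leave the streak epithelium, between 4.65 and 4.96. Neither probe was above background on any array, so their levels were not detectable here rather than shown to be absent. Without the detection filter neither gene was called in any comparison.

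Across the 5 tested members, +bFGF against -bFGF called 2 (MIXL1 lower, LHX1 higher) where 15.3% of all 9269 genes were called. With IL-11 on both sides it called 3 (MIXL1 and MESP1 lower, LHX1 higher) where 11.3% of genes were called, and the averaged bFGF difference called the same 3 genes where 27.8% were called. The median log2 difference of the 5 members was -0.30 in each of these comparisons, against -0.02 over all genes in the first and -0.0016 and -0.01 in the other 2. Arrays with and without bFGF did not overlap for 2 of the 5 tested members, compared with 30.8% of all genes tested, and for 4 of the 9 members with a probe, compared with 20.2% of all named genes. These shares describe a short list and are too few to set the members apart. The filter admitted MIXL1 only through conditions without bFGF, LHX1 only through those with it and MESP1 only through +IL-11. Their entry into the test thus depended on the side where they were high, and the counts are not independent support.

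IL-11 did not move any of the tested streak factors past the threshold. Between +IL-11 and -bFGF, 0% of genes were called, with 492 of 9269 under an unadjusted p of 0.05, and the 5 members had adjusted p between 0.816 and 0.988 (limma). The differences were 0.57 for MESP1 (95% interval -0.26 to 1.40), 0.41 for MIXL1 (-0.43 to 1.26), 0.02 for EOMES (-0.69 to 0.74), -0.17 for LHX1 (-0.89 to 0.56) and -0.21 for FOXA2 (-0.94 to 0.52). These intervals leave room for changes of more than 2-fold in MESP1 and MIXL1. Between +IL-11+bFGF and +bFGF, again 0% of genes were called, with 161 under an unadjusted p of 0.05, and the members' differences lay between -0.32 for MESP1 and 0.03 for EOMES. The test of whether IL-11 altered the bFGF difference called 0% of genes as well, with 176 under an unadjusted p of 0.05. With 2 arrays per condition and 4 residual degrees of freedom, small differences could not be seen. No gene was called for IL-11 in any of these comparisons, and no check of its activity is given here.

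Set directly against each other, +IL-11 and +bFGF differed in 2 of the 5 tested members where 13.2% of all genes were called. MIXL1 was at least 3.04-fold higher in +IL-11 (log2 difference 1.92 ± 0.38, adjusted p = 0.0103, limma), and LHX1 was at least 2.40-fold lower (adjusted p = 0.00473). MESP1 had a difference of 1.04 ± 0.37 (adjusted p = 0.0961, limma). This comparison shares its arrays with those above and adds no independent measurement of either factor. Its MIXL1 call was lost without +IL-11 replicate 2 (adjusted p = 0.0767, limma).

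**Figure D2:**
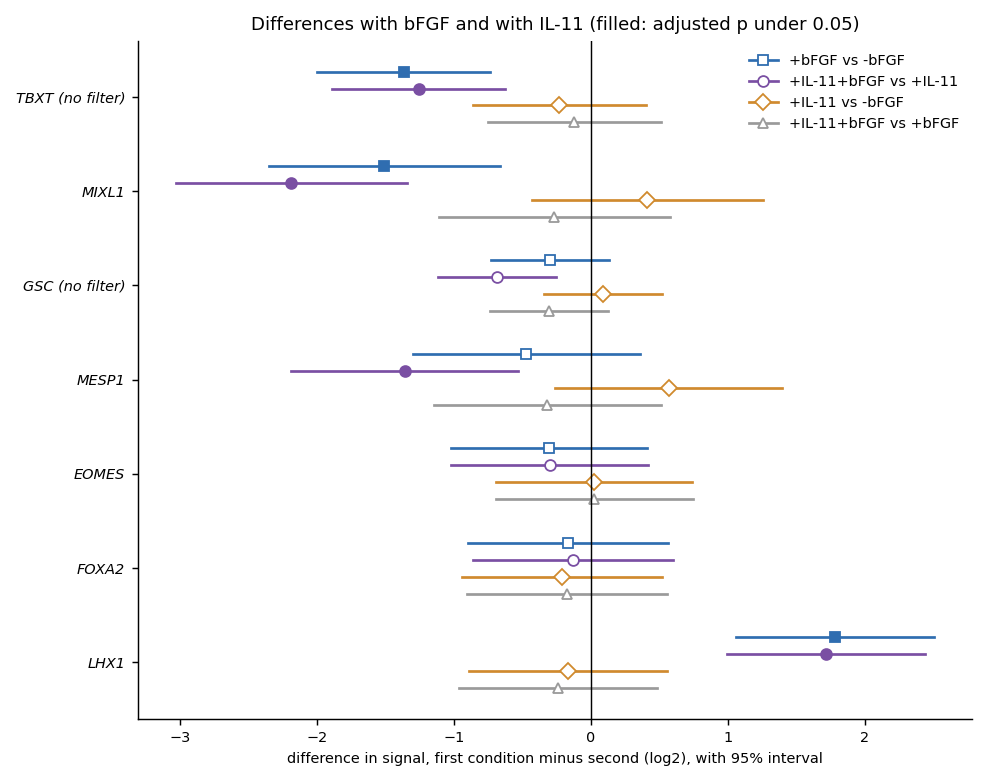
Difference in signal (log2) between conditions for 7 streak factors, with 95% intervals from limma, for bFGF added alone (squares) or with IL-11 (circles) and for IL-11 added alone (diamonds) or with bFGF (triangles); filled symbols passed an adjusted p of 0.05, and TBXT and GSC come from the fit without a detection filter. The MIXL1 and TBXT intervals for both bFGF comparisons lie wholly below 0 and those of LHX1 wholly above it, while every IL-11 interval includes 0.

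The 5 tested members varied more between arrays of one condition than most genes did. Their residual SDs were 0.47 for EOMES, 0.55 for MIXL1, 0.44 for LHX1, 0.51 for MESP1 and 0.49 for FOXA2 on the log2 scale (4 degrees of freedom), against a median of 0.13 over all 9269 genes. Between 98.1% and 99.2% of genes had a smaller SD than each of them. Replicate 2 was the higher array in 4 of 4 conditions for EOMES, LHX1, MESP1 and FOXA2 and in 3 of 4 for MIXL1, a pattern that 8.3% of all genes showed in 4 of 4.

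Markers of liver type and visceral endoderm were also mostly higher on replicate 2, except APOA1 in +IL-11 (10.87 and 10.81). The pattern was not particular to them, since HAND1 and the mesoderm receptor APLNR were higher on replicate 2 in every condition too. AFP, the fetal serum protein of yolk sac and liver, had log2 signals of 10.27 and 11.73 in -bFGF, 10.52 and 11.30 in +IL-11, 9.08 and 10.19 in +bFGF, and 7.88 and 10.91 in +IL-11+bFGF. The summed level of the 3 listed markers on the array (AFP, APOA1 and TTR, all detected in every condition, of 4 listed) was 3410 and 8298 in -bFGF, 4102 and 5690 in +IL-11, 1526 and 2783 in +bFGF, and 775 and 5315 in +IL-11+bFGF. The higher sum lay on replicate 2 in all 4 conditions, so a match of the members to it repeats the replicate pattern given above. That match held in 4 of 4 conditions for EOMES, LHX1, MESP1 and FOXA2 and in 3 of 4 for MIXL1. Of all 9269 genes, 8.3% also matched in 4 of 4. The part of liver type or visceral endoderm cells in the members' spread was not tested.

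**Figure D3:**
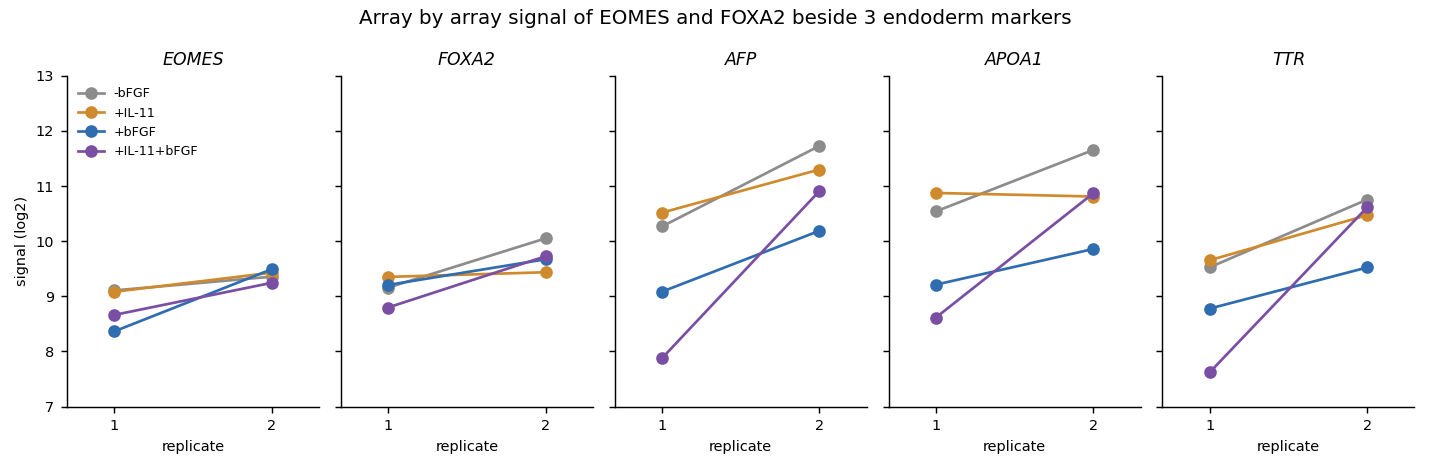
Signal (log2) of EOMES, FOXA2 and the endoderm markers AFP, APOA1 and TTR on replicates 1 and 2, with a line joining the 2 arrays of each condition for display only, since replicate numbers do not pair conditions. Replicate 2 is the higher array for each gene in each condition except APOA1 in +IL-11, and the widest gap for the markers is in +IL-11+bFGF.

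Other markers also differed with bFGF beside the members, in a comparison where 7.33% of all 9269 genes rose and 7.96% fell. The marker lists and those below were chosen with earlier results of these data known, so their counts describe and do not test. Of 9 markers of the undifferentiated state on the array, 6 rose in +bFGF against -bFGF, among them POU5F1, NANOG (0.85, adjusted p = 0.00269, limma), DPPA4 and TERF1, and 1, LIN28A, fell. All 4 tested neural crest markers fell (SOX10, FOXD3, TFAP2B and SNAI2), as did both tested neuroectoderm markers (PAX6 and OTX2). The summed neural crest level was 3260 to 4127 without bFGF and 1179 to 1476 with it. The trophectoderm sum was 2377 to 6658 without and 613 to 1543 with bFGF, with 1 of 4 tested markers called, HAND1. That sum mostly followed HAND1, which is also a mesoderm factor, at 11.08 and 12.63 in -bFGF. CDX2 was dimmer and not called, with 5.93 and 7.15 in -bFGF and 6.61 and 7.38 in +bFGF. Of the 5 definitive endoderm markers on the array 2 were tested and 0 called, with sums of 512 to 782 without and 497 to 777 with bFGF. Of 5 tested fibroblast-like markers THY1, which undifferentiated hESCs also carry, rose and COL3A1 fell, and of 2 tested later mesoderm markers 0 were called. The part of any of these cells in the streak factor differences was not tested.

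Several of the signals that act upstream of the streak factors fell with bFGF. The upstream list held 31 ligands, antagonists, mediators and targets of the NODAL, WNT, BMP and FGF pathways, of which 24 were tested. Between -bFGF and +bFGF 9 of these 24 fell and 0 rose, with a median log2 difference of -0.35. Of all 9269 genes 7.96% fell and 7.33% rose, and the median was -0.02. WNT3A, a ligand that mouse embryos need for paraxial and caudal mesoderm, had signals of 9.50 and 9.63 in -bFGF and 5.94 and 6.50 in +bFGF, a difference of -3.35 ± 0.31 (log2, SE, adjusted p = 0.000232, limma). WNT3, which the mouse streak needs to form and which was named here after its values were seen, had 7.61 and 7.65 in -bFGF and 7.10 and 7.47 in +bFGF (difference -0.35, adjusted p = 0.277, limma). In +IL-11 WNT3A was 9.59 and 9.62, and in +IL-11+bFGF 5.82 and 6.95, so that no array with bFGF came near one without it. The WNT3A probe was not detected on replicate 1 of either bFGF condition, so its fitted differences are not folds. The WNT targets AXIN2 and SP5 had differences of -2.01 (adjusted p = 3.6e-06, limma) and -2.13 (adjusted p = 0.000593). FGF8, a streak ligand, was at least 1.85-fold lower, being above background on no +bFGF array. NODAL, BMP4, LEF1, LEFTY1 and FGF17 were the other genes of the list that fell. With IL-11 on both sides 9 of the 24 fell and 0 rose, where 5.69% of all genes fell, WNT3A with a difference of -3.22 (adjusted p = 0.000315, limma). These 9 were not the same set, as they held LEFTY2 and SMAD4 in place of LEFTY1 and FGF17. The part of any of these genes in the streak factor differences was not tested.

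Few further factors of the streak and mesoderm could be measured. Of 24 listed, 20 had a probe, 9 were tested and 3 fell with bFGF alone, where 7.96% of all genes fell: HAND1, of extraembryonic and lateral mesoderm, and the homeobox factors MSX1 and MSX2. With IL-11 on both sides the same 3 fell and VENTX rose, where 5.69% of all genes fell and 5.64% rose. In the averaged bFGF difference 4 fell, and VENTX and TWIST1 rose, where 14.5% of all genes fell and 13.4% rose. HAND1 had signals of 11.08 and 12.63 in -bFGF and 8.74 and 9.95 in +bFGF (adjusted p = 0.0152, limma), and MSX1 had 11.95 and 12.06 against 9.58 and 10.48 (adjusted p = 0.00212). HAND1 is also a trophectoderm marker, and MSX1, MSX2 and SNAI2 are expressed in neural crest too. Of 14 endoderm and node factors, 6 were tested and 2 called, where 15.3% of all genes were: FOXA3 rose (0.54, adjusted p = 0.0134, limma) and OTX2, which is also a neuroectoderm gene, fell by 1.26 (adjusted p = 0.000108).

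Secreted and membrane proteins of early mesoderm fell in part. Of 9 tested among 15 listed, 4 fell with bFGF, where 7.96% of all genes fell: the Notch ligand DLL1 (log2 difference -2.44, adjusted p = 0.000212, limma), the WNT enhancer RSPO3 (-2.13), the activin antagonist FST (-1.65) and FLRT3 (-1.60). The same 4 were called with IL-11 on both sides. Of 12 genes of the epithelial to mesenchymal transition, through which cells leave the streak, 10 were tested and 3 fell, against the same 7.96%: the repressor ZEB2 by 1.18 (adjusted p = 0.00887, limma), SNAI2 by 0.90 and the mesenchymal cadherin CDH2 by 0.56. The median of that list was 0.06, on the other side of 0 from its called genes. With IL-11 on both sides the same 3 fell and EPCAM rose, where 5.69% of all genes fell and 5.64% rose. In the averaged bFGF difference the same 3 fell, and TWIST1 and EPCAM rose, where 14.5% of all genes fell and 13.4% rose. Neural crest and neuroectoderm markers fell with bFGF as well, and the cell type behind the falls in both lists was not tested.

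**Figure D4:**
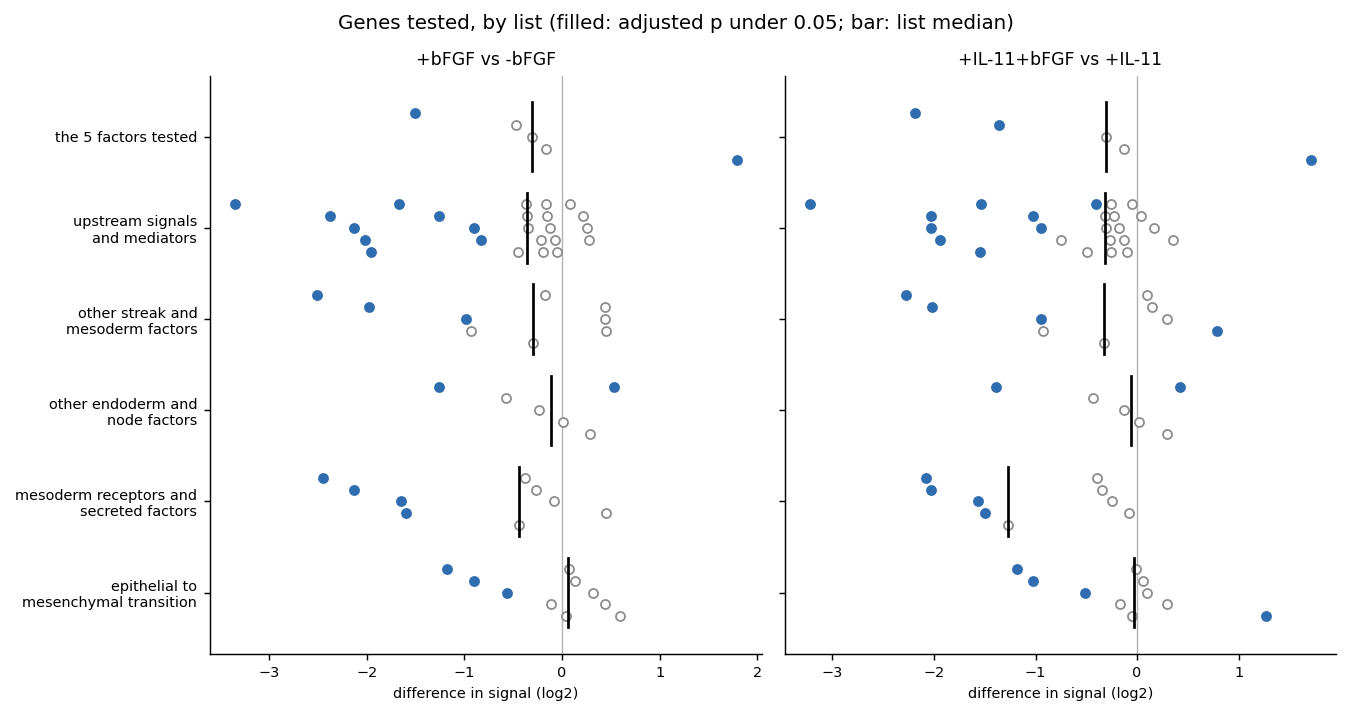
Difference in signal (log2) with bFGF for each tested gene of the streak factors and of 5 related lists, without IL-11 (left) and with IL-11 on both sides (right); filled points passed an adjusted p of 0.05 in limma, vertical offsets only separate points, and black bars are list medians. Fitted values of genes below background in 1 condition, such as LHX1 and FGF8, are not folds. In each panel all 9 called genes of the upstream list, which also holds antagonists and targets, lie below 0, though they are not the same 9. LHX1 is the called point farthest to the right.

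The genes whose profile over the 8 arrays came closest to each called member were found by the root mean square difference of their centred log2 signals among 9268 other genes. For MIXL1 they were CBLN1 (0.25), MSX1 (0.26) and LIX1 (0.29). For LHX1 they were ALKAL2 (0.20), NEFM (0.22) and SPARCL1 (0.25), and for MESP1 they were LRRC32, SMOC2 and EBF3 (0.25 each). These are likenesses over 8 arrays of 1 experiment and say nothing of shared function.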

How the data were processed

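The authors scanned the arrays, subtracted background and rank invariant normalized them in Illumina's software (GenomeStudio in the submitters' processing notes), and deposited that table together with non-normalized probe intensity values and detection p-values. The non-normalized intensity values and the deposited p-values were used here, and the normalized table was an alternative. In R 4.3.3 with limma 3.58.1 the intensities were background-corrected by normexp with negative controls inferred from the detection p-values, given an offset of 16, quantile normalized and turned into log2 values. Probes were named from the platform annotation (21834 with 1 symbol, 2692 unnamed here, 0 with several). Where several probes of a gene passed the filter, the one with the highest mean was used. One limma model of 4 condition means over 8 arrays with an intensity trend gave 7 comparisons, adjusted within each by Benjamini-Hochberg, with a threshold of 0.05. The text names all members and up to 4 genes of each other list. Those had the largest differences between +bFGF and -bFGF among called genes whose arrays did not overlap. It also names the 3 genes most like each called member, and SPRY4 as a check of the bFGF labels. Named after their values were seen were NODAL, BMP4, LEF1, LEFTY1, LEFTY2, SMAD4, FGF17, WNT3, LIN28A, AFP, APOA1, TTR, APLNR, CDX2, VENTX, TWIST1 and EPCAM. The fit was tested on simulated data. Members and lists were chosen with earlier results of these data known. The number of arrays limits the precision.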

Additional observations from a re-analysis of the deposited data

Results flagged for a closer look

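Among 22 checks of 11 member probes, each over the 4 arrays with or the 4 without bFGF, 1 array stood apart. It was TBXT in the arrays with bFGF, where +bFGF replicate 2 had a signal of 4.97 and the other 3 lay between 4.70 and 4.73, so that the gap to the nearest array was 0.895 of the whole range. All 4 signals were below the detection limit. Chance flags about 1 in 20 such groups. Without that array the TBXT difference between +bFGF and -bFGF was -1.50 (log2, adjusted p = 0.0599, limma) in the fit without a detection filter.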

How the results depend on the processing

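The averaged bFGF differences of MIXL1 and LHX1 kept their direction and their call in all 18 alternative fits, and that of TBXT in all 16. MIXL1 in +bFGF against -bFGF kept its call in 14 of 19 and LHX1 in 17 of 19. Without a detection filter TBXT kept it in 11 of 17. MESP1 in +IL-11+bFGF against +IL-11 kept its call in 13 of 19, losing it also without an intensity trend (adjusted p = 0.0647, limma), with only the arrays compared (0.0528) and by the methods' t-test (0.408), and its averaged bFGF difference kept it in 13 of 18. Using only the arrays compared, 1 member was called in +bFGF against -bFGF (LHX1). The methods' t-test at their unadjusted threshold called 1618, 1521 and 1754 genes in +bFGF against -bFGF, +IL-11+bFGF against +IL-11 and +IL-11 against +bFGF, and after Benjamini-Hochberg adjustment 2, 0 and 0, with 0 members in each. For the averaged bFGF difference 5 members were called with a detection p of 0.05 and also with no filter, TBXT and GSC being the added ones. The EOMES interaction, 0.0021, was -0.0063 in the authors' normalized table, -0.0065 with no background correction and -0.0036 with an offset of 50; the cause was not tested.

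With 1 array left out, calls ranged from 604 to 1293 genes and 1 to 2 members in +bFGF against -bFGF, from 401 to 1121 genes and 1 to 3 members in +IL-11+bFGF against +IL-11, from 433 to 1285 genes and 1 to 2 members in +IL-11 against +bFGF, and from 2 to 4 members for the averaged bFGF difference (1807 to 2432 genes). Between +IL-11 and -bFGF they ranged from 0 to 9 genes. The sign turned in some of these fits for differences that were not called. For EOMES the ranges were -0.87 to 0.26 in +bFGF against -bFGF, -0.15 to 0.20 in +IL-11 against -bFGF, -0.54 to 0.59 in +IL-11+bFGF against +bFGF, -0.24 to 0.89 in +IL-11 against +bFGF and -0.56 to 0.57 for the interaction. For FOXA2 they were, in the same order, -0.61 to 0.28, -0.66 to 0.24, -0.64 to 0.29, -0.28 to 0.19 and -0.43 to 0.50, with -0.60 to 0.33 in +IL-11+bFGF against +IL-11 and -0.38 to 0.083 for the averaged bFGF difference. For LHX1 they were -0.48 to 0.14 in +IL-11 against -bFGF, -0.69 to 0.21 in +IL-11+bFGF against +bFGF and -0.52 to 0.38 for the interaction. In +IL-11+bFGF against +bFGF they were -0.74 to 0.10 for MESP1 and -0.97 to 0.43 for MIXL1, and the MIXL1 interaction ranged from -1.38 to 0.020. A condition left with 1 array was assumed to vary like the others.

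The labels do not say that a replicate number marks a shared culture or day, and same-numbered arrays were not taken as pairs: their deviations correlated over 0.1 in 5 of 6 pairs of conditions (up to 0.20 over genes) and at -0.06 in the other. A fit with the replicate number as a block called 1643, 1213, 2721 and 1371 genes in +bFGF against -bFGF, +IL-11+bFGF against +IL-11, the averaged bFGF difference and +IL-11 against +bFGF, and 2, 3, 3 and 3 members, MESP1 being the added one in the last (adjusted p = 0.00542, limma). It called 0 genes in the other 3 comparisons. Probes near background, LHX1, MESP1, TBXT and GSC among them, have compressed differences that move with the offset: the averaged TBXT difference was -0.75 at its smallest.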
